A study of Rattus norvegicus with 8 samples.

Results

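The hypoxia factors and HIF target genes described here are 10 genes picked by name, 2 HIF alpha subunits (Hif1a and Epas1), 2 oxygen-sensing prolyl hydroxylases (Egln1 and Egln3) and 6 HIF targets (Vegfa, Adm, Bnip3, Ddit4, Ndrg1 and P4ha1), out of 32975 rows in the count table. Each symbol had 1 row, all 10 passed the filter on low counts, and genes of glycolysis were left out of the group. RNA-seq was performed on primary nucleus pulposus (NP) cells of adult Sprague Dawley rats after lentiviral transduction with a mixture of ShSirt6 clones (Sirt6-KD, libraries S5 to S8) or with the control ShRNA ShCtrl (Sirt6-Ctrl, libraries S1 to S4). Both groups received virus and puromycin and were grown in DMEM with serum, so neither is an untreated culture. The series record speaks of cells from 4 rats, each with its own control, but no label ties a Sirt6-KD library to a Sirt6-Ctrl library. A hypoxia workstation is described for the cultures used for protein, and the oxygen tension of the cultures used for RNA is not given in the sources used here.

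Cells read oxygen through the HIF system. When oxygen is plentiful, EGLN (PHD) enzymes hydroxylate prolines of the HIF alpha subunits, the VHL ubiquitin ligase binds the hydroxylated protein, and the proteasome destroys it. When oxygen is scarce the alpha subunit persists, pairs with ARNT and binds DNA at hypoxia response elements, whose core is written ACGTG or GCGTG. The NP is avascular, and its cells are known to hold HIF-1α at high levels for their whole life. SIRT6 is known in other cells as a histone deacetylase that restrains HIF-1α at glycolytic genes. Since the alpha subunits are controlled mainly as proteins, the mRNA levels given here do not measure HIF protein or its activity.

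As HIF binds DNA, the 250 bases before the start of each gene were searched for the core letters (ACGTG and GCGTG on both strands). The search used RefSeq promoters of the GRCr8 assembly, which is a later build than the one named for the counts. Of the 10 genes, 9 had a promoter in the table (Ndrg1 did not) and 5 held the letters, Hif1a, Egln1, Bnip3, Ddit4 and P4ha1, against 36.7% of all 33469 promoters. Epas1, Egln3, Adm and both promoters of Vegfa held none in this window. The stretches around the matches are shown because they carry the core letters, written 5′ to 3′ along the gene with every match in capitals.
Hif1a promoter: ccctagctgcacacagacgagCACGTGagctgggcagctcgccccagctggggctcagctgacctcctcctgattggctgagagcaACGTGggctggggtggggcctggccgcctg
Egln1 promoter: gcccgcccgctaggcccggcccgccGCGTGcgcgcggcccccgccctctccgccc
Bnip3 promoter: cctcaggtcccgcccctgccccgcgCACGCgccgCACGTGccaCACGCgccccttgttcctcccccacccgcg
Ddit4 promoter: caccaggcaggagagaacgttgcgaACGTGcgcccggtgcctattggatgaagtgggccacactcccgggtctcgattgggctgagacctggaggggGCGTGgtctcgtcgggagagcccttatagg
P4ha1 promoter: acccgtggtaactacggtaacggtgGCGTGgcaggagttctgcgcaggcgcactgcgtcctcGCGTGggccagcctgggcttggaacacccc

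The stretches lie at chr6:98359648-98359763 (plus strand, Hif1a), chr19:69804708-69804762 (minus strand, Egln1), chr1:203155023-203155095 (minus strand, Bnip3), chr20:28437074-28437200 (minus strand, Ddit4) and chr20:27844885-27844976 (plus strand, P4ha1). In Bnip3 the matches, which also stand as CACGT and CACGC where the other strand holds the core, begin 108, 99, 98 and 90 bases before the start, the densest run among the 5. In Hif1a and Bnip3 the letters CACGTG read the same on both strands and so count as 2 overlapping matches, and this run, which is also the E-box of bHLH factors, stands in 5.59% of all promoters. These matches describe the sequence only, and no binding was measured here.

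In Sirt6-KD cells all 10 genes had higher mean levels than in Sirt6-Ctrl cells, but only Vegfa and Ndrg1 passed the test with edgeR. With DESeq2, another test of read counts, Hif1a, Egln1, Ddit4 and P4ha1 were called as well, and with limma-voom these and Epas1. Over all genes, DESeq2 called 1606 of 18758 higher and limma-voom 1591 of 13250, beside 1063 of 13250 with edgeR. Levels are CPM, read counts scaled to the size of the library, after TMM scaling, which corrects for libraries dominated by a few genes. Calls come from edgeR's quasi-likelihood test over 13250 genes and needed a change of over 1.5-fold with an adjusted p under 0.05. Of all genes tested, 8.02% were called higher, beside 2 of the 10 genes here. None of the 10 was called lower, beside 10.7% of all genes. A positive log2 fold change was found in 49.1% of all genes and in 10 of 10 members, whose median log2 fold change was 0.79 against -0.016 over all genes. For 3 of the 10 genes (Vegfa, Ndrg1 and P4ha1) every Sirt6-KD library lay above every Sirt6-Ctrl library, beside 14.8% of all genes, and for none were the groups apart in the other direction, beside 15.6%. The members were chosen with results of these data known and all of them are read against the same 4 control libraries, so their shared direction was not tested as a group. Sirt6 itself, the check of the labels, was at 47.6 to 56.4 CPM in Sirt6-Ctrl and 19.2 to 21.8 CPM in Sirt6-KD (log2 fold change -1.35, standard error (SE) 0.13, adjusted p = 0.000713, edgeR).

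**Figure D1:**
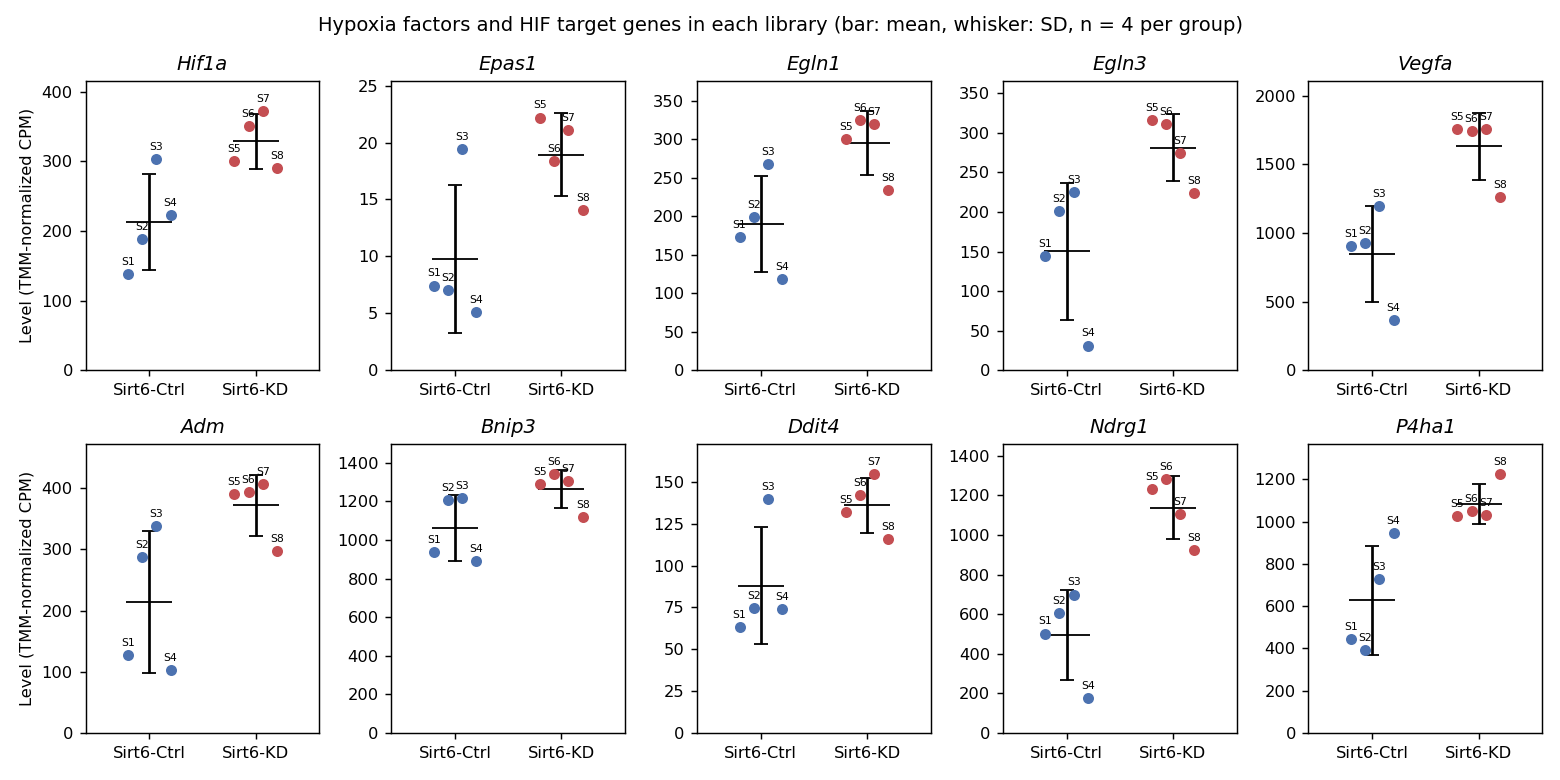
TMM-normalized CPM (linear axes from 0) of each of the 10 genes in each of the 8 libraries, Sirt6-Ctrl (S1 to S4) at left and Sirt6-KD (S5 to S8) at right, with the mean and SD of 4 libraries. The groups are fully apart for Vegfa, Ndrg1 and P4ha1, while for the other 7 genes S3 or another control reaches into the Sirt6-KD range.

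Hif1a (ENSRNOG00000008292) encodes HIF-1α, the alpha subunit found in nearly all cells. Its level was 138, 188, 303 and 223 CPM in S1 to S4, and 301, 351, 373 and 290 CPM in S5, S6, S7 and S8. S5 and S8 were thus just below S3, and all 4 Sirt6-KD libraries were above the other 3 controls. Control libraries averaged 213 ± 69.5 CPM and knockdown libraries 329 ± 39.7 CPM (mean ± SD, n = 4), a log2 fold change of 0.63 that was not called (SE 0.22, adjusted p = 0.0625, edgeR). Without S3 Hif1a was called, at 0.84 (adjusted p = 0.00736, edgeR), and without S1 and S2 it was at 0.33 (adjusted p = 0.207, edgeR). S3 was the highest control for 9 of the 10 genes, so leaving it out raises their fold changes. Without it 12.5% of all genes were called higher, beside 8.02% with all libraries. A RefSeq long noncoding RNA overlaps the span of Hif1a, and the strand setting of the counting is not given in the sources used here, so reads from the overlap cannot be assigned to one of them.

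Epas1 (ENSRNOG00000021318) encodes HIF-2α, the alpha subunit best known from endothelium and from the control of erythropoietin. With 209 to 658 reads per control library and 476 to 811 per knockdown library, it had the fewest reads of the 10 genes. The level was 7.44, 7.08, 19.4 and 5.07 CPM in S1 to S4, and 22.2, 18.4, 21.1 and 14.1 CPM in S5 to S8. S3 stood at the level of the Sirt6-KD libraries, and the other 3 controls were below all of them. At a log2 fold change of 0.96 Epas1 was not called (SE 0.39, adjusted p = 0.103, edgeR), whereas without S3 it was 1.54 and called (adjusted p = 0.0027, edgeR) and without S1 and S2 it was 0.64 (adjusted p = 0.37, edgeR). Among endothelial markers only Tek was matched, with 0 to 0.509 CPM in Sirt6-Ctrl and 0.179 to 0.592 CPM in Sirt6-KD (3 reads correspond to 0.0727 to 0.0928 CPM).

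Within a library the ratio of Epas1 to Hif1a reads does not move with the scaling of the library. On the log2 scale it was -4.21, -4.73, -3.97 and -5.45 in S1 to S4 and -3.76, -4.25, -4.14 and -4.36 in S5 to S8. The groups overlapped, and the mean was higher by 0.46 in the knockdown (exact two-sided permutation test, p = 0.257, adjusted p = 0.257 over 3 ratios, with 0.0286 as the smallest p this design allows). The difference in ratio was therefore within the spread between libraries.

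Egln1 (ENSRNOG00000019773) encodes PHD2, the main HIF prolyl hydroxylase in most cells, and Egln3 (ENSRNOG00000005053) encodes PHD3, an isoform that hypoxia induces strongly. Egln1 was at 173, 199, 268 and 118 CPM in S1 to S4 and at 301, 325, 320 and 234 CPM in S5 to S8. Egln3 was at 144, 201, 225 and 31.2 CPM in S1 to S4 and at 316, 311, 274 and 224 CPM in S5 to S8. S4 was the lowest library for both genes and S3 the highest control, with S8 the lowest Sirt6-KD library and the only one below S3.

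Neither hydroxylase was called. The log2 fold change was 0.64 for Egln1 (SE 0.23, adjusted p = 0.0669, edgeR) and 0.90 for Egln3 (SE 0.45, adjusted p = 0.174, edgeR). Egln3 had the widest range among controls of the 10 genes, with S3 7.2 times S4, against 1.41 times between the highest and lowest Sirt6-KD library. Without S3 Egln1 was called, at 0.85 (adjusted p = 0.0105, edgeR), and without S4 the Egln3 log2 fold change was 0.56 and not called (adjusted p = 0.058, edgeR). The log2 ratio of Egln3 to Egln1 reads was -0.27, 0.014, -0.25 and -1.92 in S1 to S4 and between -0.23 and 0.071 in Sirt6-KD, so S4 alone stood apart. The difference of 0.54 did not pass (exact two-sided permutation test, p = 0.229, adjusted p = 0.257).

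**Figure D2:**
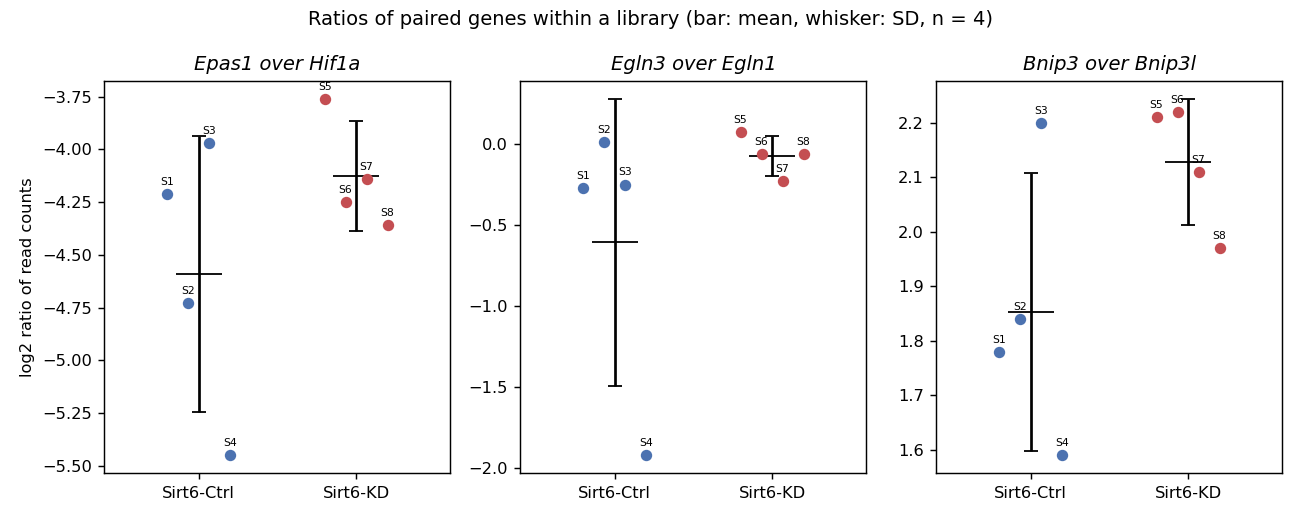
The log2 ratio of read counts of Epas1 to Hif1a, Egln3 to Egln1 and Bnip3 to Bnip3l in each library, with the mean and SD of 4 libraries per group. In each panel S4 is the lowest library (-5.45, -1.92 and 1.59), and the groups overlap.

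Vegfa (ENSRNOG00000019598) encodes the vascular endothelial growth factor VEGF-A, the classical secreted product of hypoxic cells, and had 15000 to 67278 reads per library. Its level was 903, 924, 1199 and 364 CPM in S1 to S4 and 1758, 1745, 1754 and 1262 CPM in S5 to S8. All 4 Sirt6-KD libraries lay above all controls, though S8 was closer to S3 than to the other Sirt6-KD libraries. Vegfa rose from 848 ± 350 to 1630 ± 245 CPM (mean ± SD, n = 4), 1.92-fold, with a log2 fold change of 0.94 (SE 0.30, adjusted p = 0.0478, edgeR). The call was near the threshold and was lost without any 1 of S1, S2, S5, S6, S7 and S8 (log2 fold change 0.90 to 1.09, adjusted p = 0.0544 to 0.116, edgeR). Without S4, the control with the lowest level, Vegfa was at 0.69 and still called.

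Adm (ENSRNOG00000027030) encodes adrenomedullin, a vasodilator peptide that hypoxia also induces. It was at 127, 287, 338 and 103 CPM in S1 to S4 and at 390, 393, 406 and 298 CPM in S5 to S8. The controls fell into a low pair (S1 and S4) and a high pair (S2 and S3), and S8 lay below S3. Adm, at a log2 fold change of 0.80, was not called (SE 0.34, adjusted p = 0.116, edgeR), and without S3 it was 1.11 and called (adjusted p = 0.0277, edgeR).

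Of 6 matched genes for receptors of VEGF-A and adrenomedullin, 1 was called higher and none lower, beside 8.02% and 10.7% of all genes, so counts this small are near the background. This was Nrp2, a neuropilin co-receptor of VEGF and semaphorins, which rose from 251 ± 88.0 to 458 ± 53.6 CPM (mean ± SD, n = 4; log2 fold change 0.87, adjusted p = 0.0238, edgeR). Its call was lost without S1, S5, S6, S7 or S8 (adjusted p = 0.0506 to 0.0753, edgeR).

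Ndrg1 (ENSRNOG00000007393), a stress-response gene that HIF induces, had the largest log2 fold change of the 10. It was at 502, 604, 699 and 174 CPM in S1 to S4 and at 1231, 1284, 1108 and 926 CPM in S5 to S8. The lowest Sirt6-KD library lay above the highest control, and S4 lay far below the other controls. Ndrg1 rose from 495 ± 228 to 1137 ± 159 CPM (mean ± SD, n = 4), 2.3-fold, with a log2 fold change of 1.20 (SE 0.34, adjusted p = 0.0316, edgeR). The call was lost without S1, S5, S6 or S7 (log2 fold change 1.14 to 1.24, adjusted p = 0.0734 to 0.087, edgeR) and without S1 and S2 together (1.39, adjusted p = 0.0763, edgeR). Without S4 it was 0.92 and called (adjusted p = 0.0101, edgeR). Of its paralogs, Ndrg2, Ndrg3 and Ndrg4 were tested and not called.

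Bnip3 (ENSRNOG00000017243) encodes a mitochondrial outer membrane protein that marks mitochondria for mitophagy, and its promoter is the one above with 4 matches. It had the smallest change of the 10. The level was 939, 1206, 1215 and 892 CPM in S1 to S4 and 1289, 1343, 1307 and 1120 CPM in S5 to S8. S8 fell among the controls, and the log2 fold change of 0.25 was not called (SE 0.15, adjusted p = 0.259, edgeR).

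Bnip3l, the paralog of Bnip3 and also a mitophagy receptor, had a log2 fold change of -0.02 (265 to 337 CPM in controls, 279 to 303 CPM after knockdown). The log2 ratio of Bnip3 to Bnip3l reads was 1.78, 1.84, 2.20 and 1.59 in S1 to S4 and 2.21, 2.22, 2.11 and 1.97 in S5 to S8. S3 again lay with the Sirt6-KD libraries, and the difference of 0.28 did not pass (exact two-sided permutation test, p = 0.0857, adjusted p = 0.257). None of the 7 other mitochondrial HIF targets tested, Bnip3l among them, was called higher or lower, beside 8.02% and 10.7% of all genes. Their median log2 fold change was -0.17.

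Ddit4 (ENSRNOG00000057078) encodes REDD1, a brake on the growth kinase complex mTORC1 that acts through TSC1 and TSC2. It was at 63.6, 74.4, 140 and 74.1 CPM in S1 to S4 and at 132, 142, 155 and 116 CPM in S5 to S8. S3 was above 2 of the Sirt6-KD libraries, and the other 3 controls were below all of them. Ddit4, at a log2 fold change of 0.63, was not called (SE 0.23, adjusted p = 0.0758, edgeR), and without S3 it was 0.95 and called (adjusted p = 0.00131, edgeR). Without S1 and S2 it was 0.36 (adjusted p = 0.335, edgeR). Tsc1 and Tsc2, which encode the partners it acts through, were tested and not called.

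P4ha1 (ENSRNOG00000050655) encodes a catalytic subunit of the prolyl 4-hydroxylase that stabilizes the collagen triple helix, an enzyme distinct from the HIF hydroxylases though of the same kind. It was at 444, 394, 730 and 944 CPM in S1 to S4 and at 1026, 1049, 1031 and 1224 CPM in S5 to S8. The groups did not overlap, and S4 was here the highest control, the opposite of its place for Vegfa, Ndrg1 and Egln3. Control libraries averaged 628 ± 257 CPM and knockdown libraries 1082 ± 95.0 CPM (mean ± SD, n = 4). The log2 fold change of 0.79 narrowly missed the threshold (SE 0.26, adjusted p = 0.051, edgeR). It was called with RLE size factors (adjusted p = 0.0491, edgeR), with DESeq2 (adjusted p = 0.0149) and with limma-voom (adjusted p = 0.0254). It was also called without S3 (0.86, adjusted p = 0.0434, edgeR) and without S4 (1.05, adjusted p = 0.0134, edgeR). Without S1 and S2 it was 0.38 and not called (adjusted p = 0.105, edgeR). A pseudogene and a small nuclear RNA lie within its span in RefSeq.

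Of 7 other genes of collagen modification, 1 was called higher and 1 lower, beside 8.02% and 10.7% of all genes. P4ha2, which encodes the isoform of P4ha1, rose from 386 ± 55.6 to 616 ± 60.9 CPM (mean ± SD, n = 4; log2 fold change 0.67, adjusted p = 0.0117, edgeR). P4hb, which encodes the shared beta subunit of the same enzyme and is also protein disulfide isomerase, fell from 3938 ± 520 to 2431 ± 123 CPM (log2 fold change -0.70, adjusted p = 0.0109, edgeR), a direction that turned to 0.34 with libraries scaled by spike-ins, or -0.61 against the all-gene median. Both were called in every fit that left out 1 library.

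**Figure D3:**
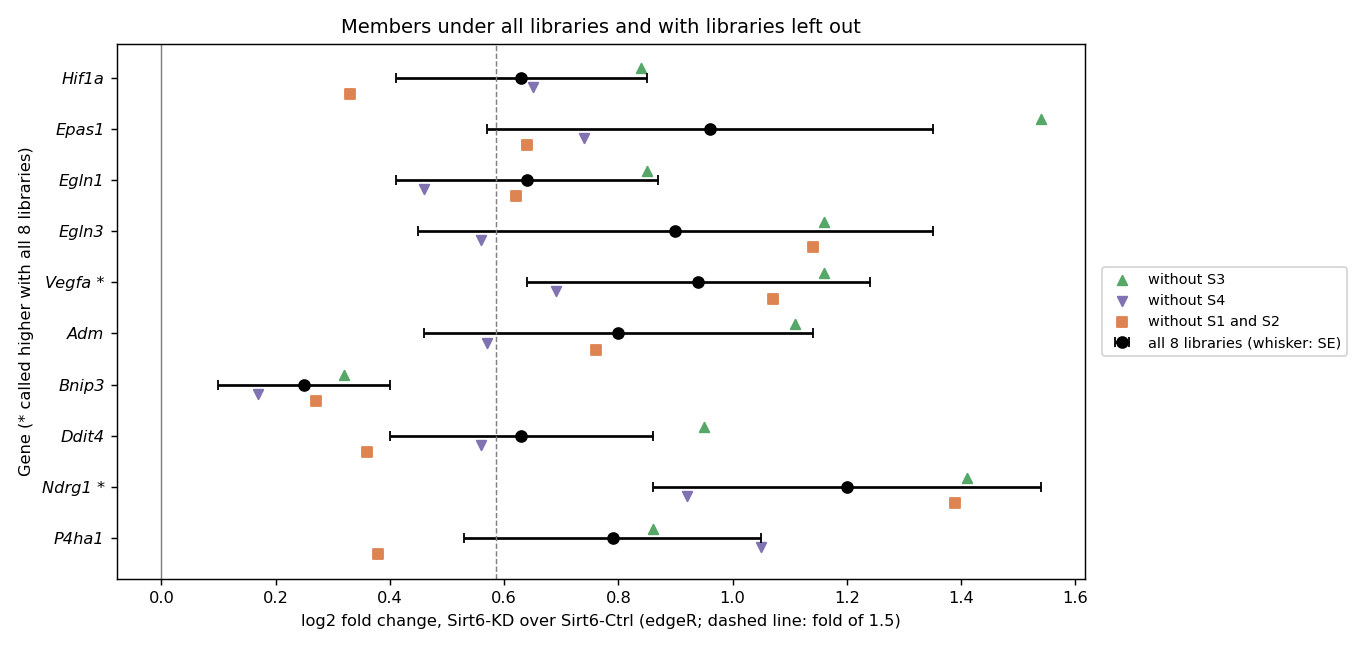
Log2 fold changes (Sirt6-KD over Sirt6-Ctrl, edgeR) of each of the 10 genes with all 8 libraries (circle, whisker: SE), without S3, without S4 and without S1 and S2, with a dashed line at a fold of 1.5. Every point is above 0, from 0.17 (Bnip3 without S4) to 1.54 (Epas1 without S3), and leaving out S3 raised all 10 values.

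The spread of the 10 genes lay mostly among the controls. The SD of log2 CPM was larger in Sirt6-Ctrl than in Sirt6-KD for 10 of 10 genes, as it was for 86.2% of all genes, with a median of 0.67 in Sirt6-Ctrl and 0.21 in Sirt6-KD for the 10 genes and of 0.47 and 0.21 over all genes. S3 was the highest control for 9 of the 10 genes (25.9% of all genes) and S4 the lowest for 7 (21.3% of all genes). In Sirt6-KD, S8 was the lowest library for 9 of the 10 (27.1% of all genes). Taken against the control mean of each gene, the median over the 10 genes was -0.18, 0.16, 0.65 and -0.68 (log2) in S1 to S4, and between 0.68 (S8) and 1.0 (S7) in Sirt6-KD, so S3 was close to S8 and far from S4. These shares are a description, and the 10 genes share the libraries they were read from.

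**Figure D4:**
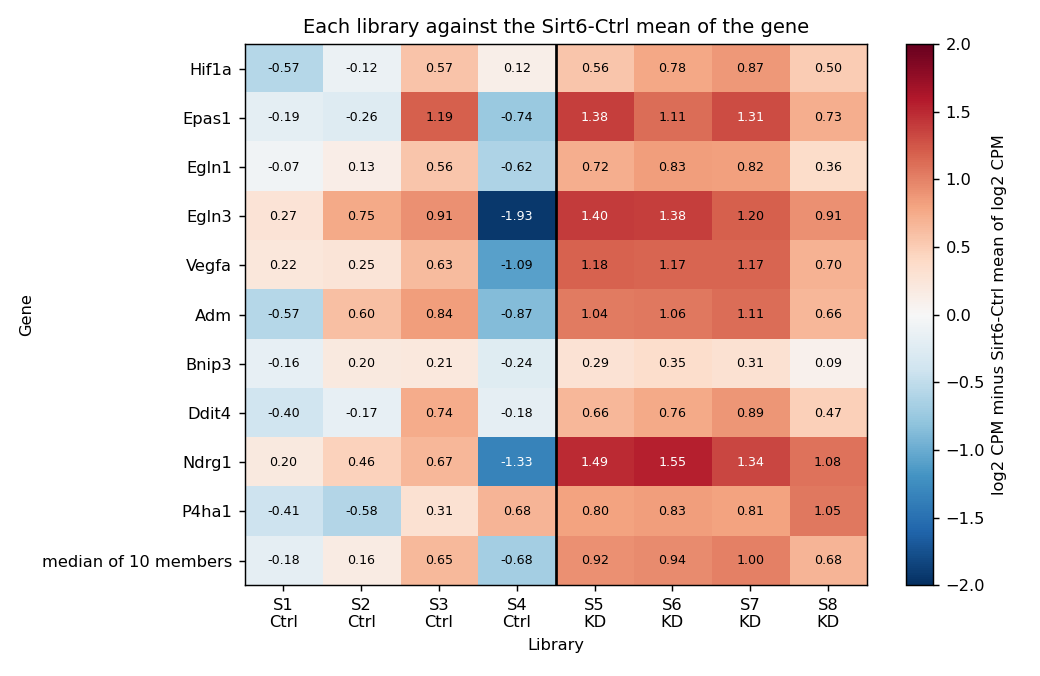
Log2 CPM of each of the 10 genes in each library minus the Sirt6-Ctrl mean of that gene, with the median over the 10 genes in the last line (red: above the control mean, blue: below). S4 is blue for Egln3 (-1.93), Ndrg1 (-1.33) and Vegfa (-1.09) and red for P4ha1 (0.68), while S3 is red throughout.

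By a fixed measure of likeness, the root mean square difference of centred log2 CPM over the 8 libraries, the genes closest to Hif1a were B3galnt1 (0.11), Egfr (0.11) and Arhgef12 (0.12), against a median of 0.69 over all genes. Of the 10 genes themselves, Ddit4 was closest to Hif1a, at 0.14. For Epas1 the closest genes were Nab2 (0.20), Crebrf (0.20) and Fam135a (0.21), against a median of 0.95, and the closest of the 10 was Vegfa, at 0.34. In each pair both genes were read from the same 8 libraries.

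The other genes of the pathway were taken from a list of 68 symbols sorted by role, of which 63 were matched and tested and 5 (Hif3a, Ep300, Kdr, Pdgfb and Ddit4l) were not analysed here. Of the 63, 14 were called higher (22.2%, beside 8.02% of all genes) and 3 lower (4.76%, beside 10.7%), with a median log2 fold change of 0.42. The list, like the members, was chosen with earlier results of these data known. Without S1, S2, S3 or S4 the number called higher was 5, 14, 23 or 14, and without S5, S6, S7 or S8 it was 4, 3, 4 or 11. The shares of all genes called higher were 4.06%, 8.55%, 12.5% and 8.09% without S1 to S4. They were 3.61%, 3.28%, 3.52% and 5.42% without S5 to S8. Only P4ha2, P4hb and Ak4 were called in every one of these 8 fits. As for Hif1a, reads cannot be assigned with certainty where another RefSeq gene overlaps, namely for Ero1a and Egln2 (a protein-coding gene each), Nrp2 and Vldlr (a long noncoding RNA each) and Kdm4c (a pseudogene).

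Of 4 other genes tested for HIF subunits and for coactivators and their competitor, 3 were called higher and none lower, beside 8.02% and 10.7% of all genes. The remaining gene, Crebbp, was not called (log2 fold change -0.41, adjusted p = 0.131, edgeR). Arnt, which encodes the HIF beta subunit, was at 22.9, 27.5, 32.9 and 25.5 CPM in S1 to S4 and at 44.0, 47.2, 43.7 and 37.0 CPM in S5 to S8, with groups that did not overlap (log2 fold change 0.66, SE 0.16, adjusted p = 0.0183, edgeR). Its paralog Arnt2 rose from 33.5 ± 9.96 to 64.3 ± 8.67 CPM (mean ± SD, n = 4; log2 fold change 0.94, adjusted p = 0.014, edgeR). Cited2, which encodes a competitor of HIF-1α for the coactivators CBP and p300 and is itself a HIF target, rose from 225 ± 23.3 to 344 ± 63.5 CPM (log2 fold change 0.61, adjusted p = 0.0201, edgeR). The call was lost without S5, S6 or S7 for Arnt (adjusted p = 0.0583 to 0.0682, edgeR) and without S7 for Arnt2 (adjusted p = 0.0505, edgeR). For Cited2 it was lost without S1, S4, S5 or S6 (adjusted p = 0.0394 to 0.0666, edgeR), with a fold below 1.5 without S4 or S5.

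Of 9 genes of oxygen sensing and HIF degradation other than Egln1 and Egln3, none was called higher and 2 were called lower, beside 8.02% and 10.7% of all genes. Their median log2 fold change was -0.28, and no difference from the other roles was tested. Both that fell encode parts of the VHL ubiquitin ligase, which also serve other ligases. Rbx1, its RING subunit, fell from 89.4 ± 30.6 to 47.7 ± 5.45 CPM (mean ± SD, n = 4; log2 fold change -0.90, adjusted p = 0.0171, edgeR), and Eloc, elongin C, fell from 73.6 ± 15.1 to 44.4 ± 6.32 CPM (log2 fold change -0.73, adjusted p = 0.0193, edgeR). With libraries scaled by spike-ins the values were 0.24 and 0.34, or -0.70 and -0.60 against the all-gene median. The calls were lost without S6 or S7 for Rbx1 (adjusted p = 0.0593 for each) and without S1, S5, S6 or S7 for Eloc (0.0585 to 0.0645).

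The substrate-binding subunit Vhl was at 55.9, 105, 69.9 and 50.9 CPM in S1 to S4 and at 46.0 to 58.9 CPM in Sirt6-KD, with a log2 fold change of -0.39 that was not called (SE 0.22, adjusted p = 0.227, edgeR). S2 and S3 lay above all Sirt6-KD libraries, and S1 and S4 lay within their range. Egln2, which encodes the PHD1 hydroxylase, was at 49.8 to 59.6 CPM in Sirt6-Ctrl and 40.8 to 47.8 CPM in Sirt6-KD, without overlap, but was not called (log2 fold change -0.28, adjusted p = 0.14, edgeR). On the spike-in scale the Vhl and Egln2 values were 0.71 and 0.67, both below the median of all genes. Hif1an, which encodes the asparaginyl hydroxylase FIH that blocks coactivator binding, was at 9.59 to 18.8 CPM in Sirt6-Ctrl and 13.3 to 20.2 CPM in Sirt6-KD (log2 fold change 0.19, SE 0.26, adjusted p = 0.641, edgeR), a difference that was -0.11 without S1 and S2.

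**Figure D5:**
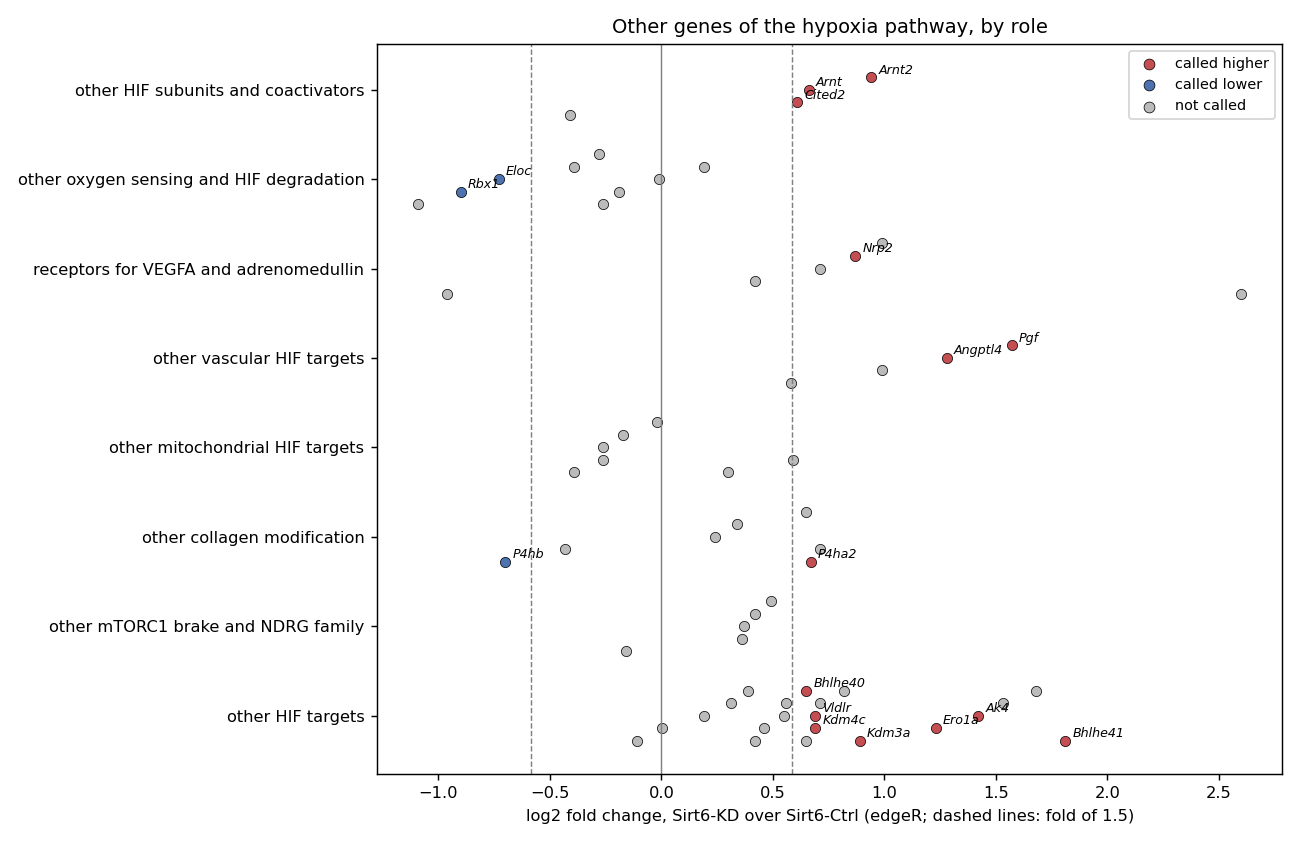
Log2 fold changes (Sirt6-KD over Sirt6-Ctrl, edgeR) of the 63 other genes of the pathway, 1 point per gene, sorted by role, with called genes in colour and named. The 14 genes called higher stand in 5 of the roles, and the 3 called lower (Rbx1, Eloc and P4hb) among degradation and collagen genes.

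Among other vascular HIF targets 2 of 4 were called higher and none lower, beside 8.02% and 10.7% of all genes. Pgf, which encodes placental growth factor of the VEGF family, rose from 4.86 ± 2.70 to 14.5 ± 3.60 CPM (mean ± SD, n = 4; log2 fold change 1.57, adjusted p = 0.0172, edgeR). Angptl4, which encodes an inhibitor of lipoprotein lipase, rose from 10.1 ± 4.13 to 24.6 ± 7.43 CPM (log2 fold change 1.28, adjusted p = 0.0242, edgeR). The calls were lost without S1, S5 or S6 for Pgf (adjusted p = 0.052 to 0.0631) and without S1, S5, S6 or S7 for Angptl4 (0.0543 to 0.0822).

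Among the remaining HIF targets 7 of 21 were called higher and none lower, beside 8.02% and 10.7% of all genes. Of the 21, 20 had a positive log2 fold change, beside 49.1% of all genes. Ak4, a mitochondrial adenylate kinase, was at up to 61.2 CPM among the controls, in S3, and at 90.6, 93.4, 106 and 78.7 CPM in S5 to S8 (log2 fold change 1.42, SE 0.30, adjusted p = 0.0115, edgeR). Ero1a, which encodes an oxidase of disulfide bond formation in the endoplasmic reticulum, rose from 598 ± 324 to 1400 ± 161 CPM (mean ± SD, n = 4; log2 fold change 1.23, adjusted p = 0.0196, edgeR), with S3 at 1072 CPM, nearly that of S8 at 1163 CPM. As for most of the 10 genes above, S3 was the highest control for both Ak4 and Ero1a.

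Of the 7, 2 encode histone demethylases that use oxygen. Kdm3a rose from 93.9 ± 33.8 to 174 ± 18.3 CPM (log2 fold change 0.89, adjusted p = 0.0183, edgeR) and Kdm4c from 24.4 ± 6.67 to 39.5 ± 4.29 CPM (0.69, adjusted p = 0.0313, edgeR; mean ± SD, n = 4). The related bHLH repressors Bhlhe41 and Bhlhe40 rose by log2 fold changes of 1.81 (adjusted p = 0.0246, edgeR) and 0.65 (adjusted p = 0.0212, edgeR), and the lipoprotein receptor gene Vldlr by 0.69 (adjusted p = 0.0331, edgeR). Apart from Ak4, each of these calls was lost when some single library was left out, from 3 of the libraries for Kdm3a (S1, S6 and S7, adjusted p = 0.0537 to 0.0598) to 7 for Vldlr (all but S3, adjusted p = 0.0555 to 0.0935). The libraries were S1, S5, S6 and S7 for Ero1a (adjusted p = 0.0547 to 0.0617, edgeR) and Bhlhe41 (0.0585 to 0.0789). For Bhlhe40 they were S4 to S7 (0.0278 to 0.0725), and without S4 only the fold fell short. For Kdm4c they were all but S2 and S3 (0.0542 to 0.102).

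Not every well-known HIF target was called. Car9, the carbonic anhydrase often used as a marker of hypoxia and singled out here after its values were seen, was at 656, 748, 758 and 673 CPM in S1 to S4 and at 842, 863, 802 and 732 CPM in S5 to S8. S8 lay within the control range, and the log2 fold change of 0.19 was not called (SE 0.12, adjusted p = 0.297, edgeR). S4, the lowest control for Vegfa and Egln3, was thus close to the other controls for Car9.

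Facts of the libraries bear on all of these values. Total counts ranged from 31994838 to 40124813, and the share taken by ERCC spike-ins, synthetic RNAs added to the samples, was 2.97% to 9.80% in Sirt6-Ctrl (highest in S1 and S2) and 2.15% to 2.47% in Sirt6-KD. Its part in the results was not tested. Scaling by spike-ins put the median of all genes at a log2 fold change of 0.94 and that of the 10 genes at 1.67, or 0.72 above it. On this scale none of the 10 was called, and only 0.151% of all genes were called higher. Without S1 and S2 the median of the 10 was 0.63, all 10 were positive, and none was called, beside 5.71% of all genes called higher. Of 11 NP markers listed, Krt18, Krt19, Tbxt, Noto and Shh were not matched. Of the 6 matched, 2 were called lower (Krt8 and Car3, both used as markers of NP cells) and none higher, beside 10.7% and 8.02% of all genes. Basp1 (0.092) and Cdh2 (0.53) had positive log2 fold changes and were not called. The median log2 fold change of the 6 markers was -0.63. Their summed level, 299 to 381 CPM in Sirt6-Ctrl and 301 to 369 CPM in Sirt6-KD, was carried largely by Basp1 (136 to 228 CPM over the 8 libraries) and does not show the lower levels of Krt8 and Car3. Of 6 matched markers of annulus fibrosus and fibroblasts 2 were called lower (Scx and Dpt) and none higher, beside 10.7% and 8.02% of all genes. The summed levels of the 6 were 13692 to 25976 and 8342 to 17877 CPM, highest in S4 among controls and in S8 among Sirt6-KD libraries. These sums were carried largely by Col1a1 (13286 to 25213 and 7961 to 17465 CPM), which was not called. Pdgfra, the only marker of this list with a positive log2 fold change (0.82), was not called either. Chondrocyte markers summed to 10.7 to 61.0 and 21.9 to 27.4 CPM. Of 4 matched, 1 was called, Col9a1 higher, beside 8.02% of all genes, with at most 0.0575 CPM in any control. Immune markers summed to 11.9 to 29.7 and 15.0 to 23.8 CPM (none of 3 called). The part of these cells in the results was not tested, and in bulk RNA fewer cells of a type and less RNA per cell cannot be told apart.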

How the data were processed

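RNA-seq was analysed in 8 libraries of primary rat NP cells, 4 per group. The deposited raw counts, made by the authors for each Ensembl gene and ERCC spike-in, carry no normalization. Per the labels, the submitters' processing notes name Trimmomatic 0.36, STAR 2.5.2b, featureCounts of Subread 1.5.2, DESeq2 and the build Rnor_6.0. A second deposited table holds the authors' own comparison (log2 fold changes, p-values) and a normalized signal, the counts divided by 1 size factor per library. Only its gene names were used.

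Counts were filtered with filterByExpr (13313 rows left, 63 of them spike-ins), normalized by TMM and tested with edgeR 4.0.16 (R 4.3.3), two-sided and unpaired, with Benjamini-Hochberg adjustment over all rows. This test reports no SE. Each SE given was derived from it, as the absolute log2 fold change divided by the square root of the F statistic. The members and lists were chosen with earlier results of these data known. Named are the 10 members, Sirt6, every called gene of the pathway list, Arnt, Vhl, Egln2 and Hif1an, and the 3 genes nearest in pattern to Hif1a and to Epas1. Outside this rule, Bnip3l is named for its ratio, markers for their lists, and Car9, Crebbp, Tsc1, Tsc2 and Ndrg2 to Ndrg4 by choice after their values were seen. Ratios within a library used a pseudocount of 0.5 and exact permutation tests. Log2 CPM used a prior count of 2. DESeq2 1.42.0 and limma 3.58.1 (voom), other scalings, other filters and left-out libraries were the alternatives, and the script was tested on simulated counts. The floor of 3 counts corresponds to 0.0727 to 0.0928 CPM and covers counting error only. The groups come from the genotype labels, which do not say which libraries share a rat, so p-values measure the spread between these libraries. Levels were not compared between genes, because transcript lengths were not used.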

Additional observations from a re-analysis of the deposited data

Results flagged for a closer look

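Dixon's outlier test was run on 62 sets of 4 libraries (each group for the 10 members, Sirt6, the called pathway genes, Vhl, Egln2 and Hif1an) and picked out 7, against 3.1 by chance at 1 in 20. The values are the gap from the outlying library to its neighbour as a share of the range. Among controls, S3 lay above the other controls for Epas1 (0.834 of the range), Ddit4 (0.858), Pgf (0.88) and Kdm4c (0.956). Among Sirt6-KD libraries, S8 lay below the others for Vegfa (0.975) and Adm (0.845) and above them for P4ha1 (0.888). The libraries share RNA across genes, so these are not independent.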

How the results depend on the processing

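The number of members called higher was 2 in edgeR with TMM, 3 with RLE size factors, 6 with DESeq2, 7 with limma-voom, and 0 with spike-in scaling or without S1 and S2. Leaving out 1 library at a time, it ranged from 0 (without S1, S5, S6 or S7) to 8 (without S3). None was called lower in any of these. In every alternative all 10 log2 fold changes were positive and above the median of all genes. With spike-in scaling that median was itself 0.94, so the sign alone says little there. The alternatives reuse the same libraries and are not independent. Of the 63 other pathway genes, 14 were called higher and 3 lower, against 0 and 0 with spike-in scaling and 6 and 0 without S1 and S2. Over all genes, DESeq2 called 1606 higher of 18758 and limma-voom 1591 of 13250, beside 1063 of 13250 in edgeR with TMM. Spike-in scaling called 20 higher and 4 lower of 13250. Without S1 and S2, 810 were called higher and 709 lower of 14177. With 1 library left out the pathway counts ranged from 3 to 23 higher, beside 3.28% to 12.5% of all genes. The pathway counts lower ranged from 1 to 4, beside 700 to 1913 of all genes. Direction turned for Egln2 (0.67), Vhl (0.71), Eloc (0.34), Rbx1 (0.24) and P4hb (0.34) with spike-in scaling, where the median of all genes was 0.94, and for Hif1an (-0.11) without S1 and S2. The cause was not tested. The ratios kept their direction. They cannot reach p below 0.05 with 3 libraries against 4, where the smallest p is 0.0571. No paired analysis was possible because neither the labels nor the columns say which libraries came from the same rat.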
